A study of Mus musculus with 10 samples.

Results

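Whole lungs of P30 mice were examined here for 10 genes of atrial and pulmonary vein muscle, chosen by name out of 54532 genes measured: Myl7, Myl4, Myh6, Actc1, Tnnt2, Tnni3, Nppa, Sln, Ryr2 and Pln. All 10 symbols were present in the table, 1 entry each. The animals were C57BL/6J mice of wild-type genotype, operated on at P7. In the increased pulmonary flow (IPF) group, an aortocaval fistula was made by puncturing the abdominal aorta through into the inferior vena cava, and 5 lungs were sequenced. The sham group had the same operation without the puncture, also with 5 lungs. Both groups therefore shared the anesthesia, the laparotomy and the age at collection. The lungs were snap-frozen whole, and the methods do not state whether heart, large veins or other hilar tissue were trimmed away. Each sample was a single library, and replicates were taken from the labels as separate lungs.

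In the mouse, cardiac muscle does not stop at the left atrium. A sleeve of cardiomyocytes continues along the pulmonary veins into the lung, so that a normal mouse lung holds striated heart-type muscle in its vein walls, and these cells use an atrial set of contractile genes. Atrial and ventricular muscle differ in their myosin light chains: the atria carry Myl7 and Myl4, while the ventricles carry Myl2 and Myl3. Myh6 and Myh7 encode the cardiac myosin heavy chains, Myh7 also being the slow skeletal heavy chain. In the working cell, calcium is released from the sarcoplasmic reticulum through Ryr2, binds to troponin on the thin filament, and is pumped back by Atp2a2, which Pln and Sln restrain. Nppa encodes atrial natriuretic peptide, which the atria secrete.

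Levels are given as FPKM, the fragments on a gene divided by its length and by the size of the library, and the reads behind them were recovered from the FPKM values and gene lengths. Recovered depth was 15483046 to 19026843 reads per lung, and no pair of replicates agreed within sampling noise (chi-square per degree of freedom 4.49 to 34.3). All samples had the surfactant gene Sftpc at 9437 FPKM or more and the club cell gene Scgb1a1 at 3285 FPKM or more. Sham replicate 1 had the lowest Sftpc of its group. Ddx3y, on the Y chromosome, had reads in 0 of 5 IPF and 5 of 5 sham lungs, so sex and operation cannot be told apart in any comparison of the groups. IPF replicate 4 and sham replicate 3 stood apart in the muscle genes described here, and group results are given with all 10 lungs and without those 2.

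The promoter DNA of 3 genes is shown because they span the patterns seen among genes of atrial muscle: Myl7 was at 63.9 and 55.2 FPKM in those lungs, Mybphl, an atrial myosin-binding protein gene outside the 10, was close to 0 in the other 8 lungs, and Nppa had almost no reads in any. Each line is the 250 bases before the annotated start, 5′ to 3′ on the gene's strand, from RefSeq (GRCm38.p6), at chr11:5898783-5899032 on the minus strand for Myl7, chr3:108364661-108364910 on the plus strand for Mybphl and chr4:148000472-148000721 on the plus strand for Nppa. Capitals mark matches to the motifs searched.
Myl7: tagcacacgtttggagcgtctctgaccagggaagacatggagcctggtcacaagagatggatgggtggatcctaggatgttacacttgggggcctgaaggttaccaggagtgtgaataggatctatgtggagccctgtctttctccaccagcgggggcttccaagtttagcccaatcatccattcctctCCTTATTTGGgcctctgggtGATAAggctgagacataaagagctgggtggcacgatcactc
Mybphl: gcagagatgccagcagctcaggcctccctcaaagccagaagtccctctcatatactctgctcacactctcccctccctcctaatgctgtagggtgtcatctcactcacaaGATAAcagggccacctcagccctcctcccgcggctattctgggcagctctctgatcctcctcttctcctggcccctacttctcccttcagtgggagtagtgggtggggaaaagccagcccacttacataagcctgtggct
Nppa: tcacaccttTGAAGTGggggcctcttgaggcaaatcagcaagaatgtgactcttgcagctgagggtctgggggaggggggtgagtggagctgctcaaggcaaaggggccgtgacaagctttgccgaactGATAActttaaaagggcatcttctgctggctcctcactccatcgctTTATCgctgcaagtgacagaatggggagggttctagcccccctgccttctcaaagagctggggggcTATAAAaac
The Myl7 window held a CArG box, the element that serum response factor binds, at bases -61 to -52 from the start, and the motif GATAA, which factors of the GATA family bind, at -41 to -37. The Mybphl window held GATAA at -140 to -136. The Nppa window held TNAAGTG at -241 to -235, GATAA at -121 to -117, its reverse complement at -75 to -71, and TATAAA at -9 to -4. Both strands were searched for these motifs and for the MEF2 box, which these windows did not hold, and no match overlapped another motif. Of 32851 promoters in the table, 22.6% held GATAA, 12.4% TATAAA, 10.1% TNAAGTG, 2.92% a MEF2 box and 1.47% a CArG box. Of the 9 members with an entry, 4 held GATAA (Myl7, Nppa, Pln and Tnnt2), 2 held TATAAA (Nppa and Pln), 2 held a CArG box (Actc1 and Myl7), 1 held TNAAGTG (Nppa) and 0 held a MEF2 box. Sln was not matched. A match is a description of letters and not a bound site.

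The myosin genes showed the pattern in its plainest form. Myl7 (ENSMUSG00000020469, chr11:5896637-5898782, GRCm38), the regulatory light chain of atrial myosin, was at 0.498, 2.85, 0.896, 63.9 and 1.05 FPKM in IPF replicates 1 to 5 and at 0.206, 0.378, 55.2, 0.712 and 1.78 FPKM in sham replicates 1 to 5. IPF replicate 4 and sham replicate 3 were far above all others, the lower of the pair being 19.4 times the highest of the other 8, and the groups overlapped. These were 687 and 523 reads, against 2 to 28 reads in the other lungs. The group means were 13.8 ± 28.0 FPKM in IPF and 11.7 ± 24.4 in sham (SD, n = 5 each), so that the SD exceeded the mean in both groups. On the log2(FPKM + 0.1) scale IPF minus sham was 0.68 with a standard error of 1.53 (limma, adjusted p = 0.858). In bulk tissue, fewer cells of a type and less RNA per cell cannot be told apart.

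Myl4 (ENSMUSG00000061086, chr11:104550663-104595753), the atrial essential light chain, was at 1.09, 0.996, 1.28, 9.24 and 0.939 FPKM in IPF replicates 1 to 5 and at 0.563, 1.19, 7.47, 0.751 and 0.848 FPKM in sham replicates 1 to 5. The same lungs were highest, and the lower of them was 5.85 times the highest of the rest. Unlike Myl7, it kept 43 to 112 reads in each of the other 8 lungs. The log2 difference between IPF and sham was 0.35 with a standard error of 0.74 (limma, adjusted p = 0.851). In IPF replicate 4 the FPKM of Myl7 was 6.91 times that of Myl4 although Myl4 had more reads (781 against 687), since the table counts Myl4 over 4637 bases and Myl7 over 590. The size of that ratio thus depends on the gene lengths in the table.

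Myh6 (ENSMUSG00000040752, chr14:54941921-54966927), the alpha heavy chain of atrial and adult mouse heart muscle, was at 0.148, 0.0268, 0.126, 18.7 and 0.0672 FPKM in IPF replicates 1 to 5 and at 0.0541, 0.00829, 15.3, 0 and 0.0390 FPKM in sham replicates 1 to 5. No other member separated the lungs so widely: IPF replicate 4 and sham replicate 3 had 2296 and 1651 reads, the other 8 had 0 to 17, and the ratio of the lower of the pair to the highest of the rest was 103. The log2 difference between IPF and sham was 0.53 with a standard error of 1.65 (limma, adjusted p = 0.903).

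**Figure D1:**
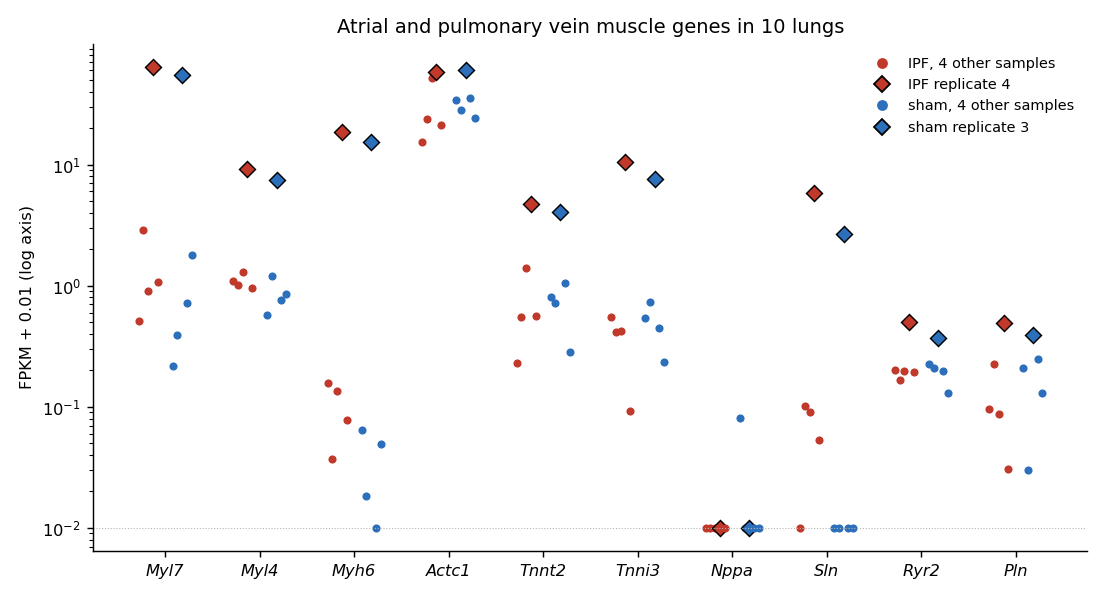
FPKM plus 0.01 on a log axis for the 10 genes, 1 point per lung, with IPF in red and sham in blue. Diamonds are IPF replicate 4 and sham replicate 3, which are the highest points of every gene but Nppa, and Myh6 shows the widest gap while Actc1 shows the smallest of those 9.

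The plot of FPKM by gene shows that the thin filament genes divided. Actc1 (ENSMUSG00000068614, chr2:114047282-114053548), the cardiac alpha actin, was at 15.4, 23.9, 51.8, 58.0 and 21.3 FPKM in IPF replicates 1 to 5 and at 33.9, 28.2, 60.8, 35.5 and 24.3 FPKM in sham replicates 1 to 5. It was abundant in every lung, with 424 to 1710 reads. Sham replicate 3 and IPF replicate 4 were again highest, but IPF replicate 3 followed closely, and the ratio was 1.12. In IPF replicate 3, Acta2 (140 FPKM), the actin of smooth muscle, and the airway cilia gene Dynlrb2 (37.0 FPKM) were at their highest of the 10 lungs while Myl7 was at 0.896 FPKM. Their part in the Actc1 value was not tested. The log2 difference of Actc1 between IPF and sham was -0.22 with a standard error of 0.37 (limma, adjusted p = 0.805).

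Tnnt2 (ENSMUSG00000026414, chr1:135836354-135852260), the cardiac troponin T that ties troponin to tropomyosin, was at 0.220, 0.542, 1.40, 4.72 and 0.547 FPKM in IPF replicates 1 to 5 and at 0.790, 0.712, 4.05, 1.04 and 0.271 FPKM in sham replicates 1 to 5. The lower of the pair was 2.90 times the next lung, which was IPF replicate 3 as for Actc1. Tnni3 (ENSMUSG00000035458, chr7:4518305-4524229), the inhibitory troponin of the heart, was at 0.541, 0.407, 0.410, 10.5 and 0.0822 FPKM in IPF replicates 1 to 5 and at 0.529, 0.730, 7.61, 0.437 and 0.222 FPKM in sham replicates 1 to 5. Tnni3 separated the pair by 10.4 times, and sham replicate 2 came next. The groups overlapped for both troponins. The log2 difference between IPF and sham was -0.08 with a standard error of 0.75 for Tnnt2 (limma, adjusted p = 0.973) and -0.22 with a standard error of 1.08 for Tnni3 (limma, adjusted p = 0.940).

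The calcium genes ranged from a clear separation to almost none. Sln (ENSMUSG00000042045, chr9:53850164-53854560), sarcolipin, the small inhibitor of the calcium pump that is found in atria rather than ventricles, was at 0, 0.0910, 0.0803, 5.83 and 0.0429 FPKM in IPF replicates 1 to 5 and at 0, 0, 2.65, 0 and 0 FPKM in sham replicates 1 to 5. The reads were 140 and 56 in the pair and 0 to 2 in the other 8, a ratio of 29.1. Pln (ENSMUSG00000038583, chr10:53337667-53345987), phospholamban, the pump inhibitor that prevails in ventricles and also occurs in smooth muscle, was at 0.0852, 0.217, 0.0767, 0.477 and 0.0205 FPKM in IPF replicates 1 to 5 and at 0.198, 0.0202, 0.384, 0.239 and 0.119 FPKM in sham replicates 1 to 5. It was highest in the same pair, with a ratio of 1.60, but on only 24 and 17 reads, against 1 to 11 elsewhere. Ryr2 (ENSMUSG00000021313, chr13:11553102-12106945), the calcium release channel, was at 0.190, 0.156, 0.189, 0.488 and 0.183 FPKM in IPF replicates 1 to 5 and at 0.217, 0.200, 0.361, 0.186 and 0.121 FPKM in sham replicates 1 to 5. Its ratio was 1.66, and the other 8 lungs kept 53 to 103 reads each. Between IPF and sham, the log2 difference was 0.68 with a standard error of 1.24 for Sln (adjusted p = 0.818), -0.17 with 0.49 for Pln (adjusted p = 0.895) and 0.07 with 0.30 for Ryr2 (adjusted p = 0.928), all by limma.

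Nppa (ENSMUSG00000041616, chr4:148000722-148002079) was the exception. It had 1 read in sham replicate 1 (0.0701 FPKM) and 0 in the other 9 lungs, IPF replicate 4 and sham replicate 3 included. A count of 0 allows up to 3 reads, which is 0.190 FPKM in IPF replicate 4 and 0.216 FPKM in sham replicate 3. Against the Myl7 of the same library, Nppa was at most 0.367% in IPF replicate 4 and at most 0.483% in sham replicate 3 (upper end of the exact 95% interval, counting error only). Nppb, the related peptide gene, had 1 read in IPF replicate 4 and none elsewhere. Nppa did not reach a mean of 0.1 FPKM and was not tested between the groups.

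No member passed the test between IPF and sham. The limits were an adjusted p below 0.05 together with a log2 difference beyond 1 in size. Of the 9 members tested, 0 passed both, while 1.14% of the 20448 genes tested did, 0.68% with IPF higher and 0.46% with IPF lower. By limma, 0 of 9 had an unadjusted p under 0.05 (19.5% of all genes), and 0 by limma voom on the recovered reads (0 called, against 1.43% of all genes). The exact two-sided permutation test of the FPKM difference gave p between 0.468 and 0.905 for the 9 genes, where 0.00794 was the smallest p that 252 assignments allow. The groups overlapped for all 10 members, while they did not overlap for 7.29% of genes tested. The median log2 difference of the members was 0.07 (5 above 0 and 4 below), and that of all genes tested was 0.00.

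The direction of most members turned on which of the pair was kept. Without IPF replicate 4 the log2 difference of Myl7 was -0.47 and that of Myh6 -0.80. Without sham replicate 3 they were 1.94 and 1.92. Myl4 moved from -0.25 to 0.96, Sln from -0.38 to 1.64, and Tnni3 from -1.16 to 0.54 in the same way. With both left out, Myl7 was 0.80 higher in IPF with a standard error of 0.61 (limma, adjusted p = 0.590), and Myl4 0.36 higher (adjusted p = 0.479). The log2 difference was then -0.25 for Actc1, -0.15 for Tnnt2, -0.40 for Tnni3, 0.0050 for Ryr2 and -0.27 for Pln. Myh6 and Sln then fell below the limit of 0.1 FPKM, and 0 of the remaining 7 members were called or had an unadjusted p under 0.05, with adjusted p between 0.479 and 0.997. These intervals are wide: at a standard error of 1.53 on the log2 scale, a severalfold change of Myl7 in either direction was not detectable with these 10 lungs.

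**Figure D2:**
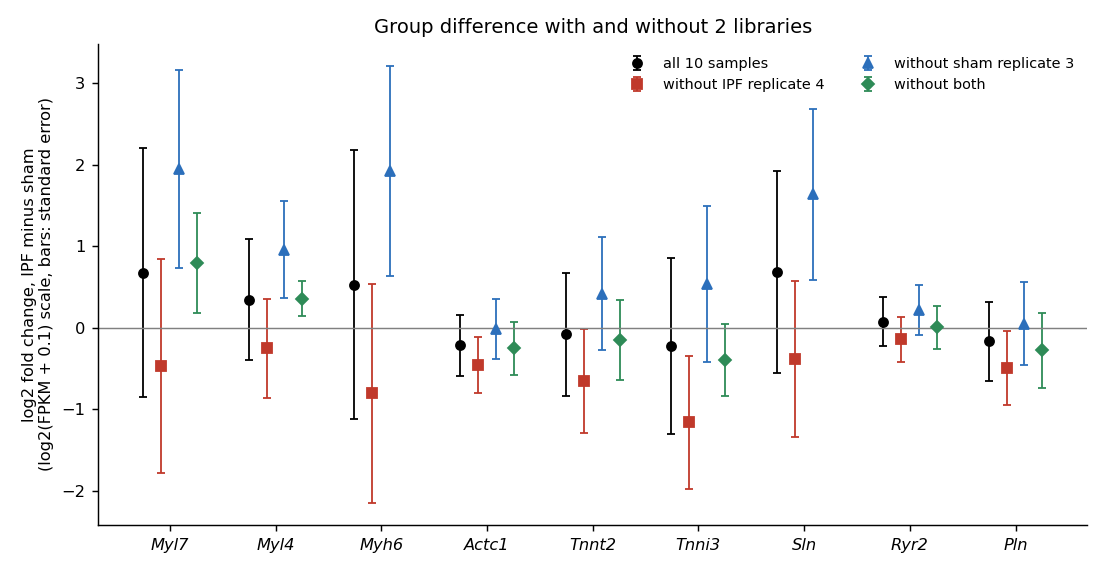
Log2 difference of IPF minus sham for 9 members on the log2(FPKM + 0.1) scale, with standard errors as bars, from all 10 lungs (black), without IPF replicate 4 (red), without sham replicate 3 (blue) and without both (green, Myh6 and Sln not tested). All red points lie below 0 and all blue points but Actc1 above 0, so the sign follows the lung that is left out.

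The plot of the group differences shows this as an upward shift from red to blue points in all 9 genes. The direction of that shift is arithmetic and no separate result. Each of these lungs held the highest value of its group in all 9 genes.

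IPF replicate 4 and sham replicate 3 held the highest and second highest value in 9 of 10 members, and 1.22% of the 20448 genes tested had that order. They were singled out by these very values, so the counts are a description and carry no test. Genes tested had a mean of at least 0.1 FPKM over all 10 lungs, so some entered only through the pair. Examples are Ckmt2 (at most 0.0441 FPKM in the other 8) and Mybphl (at most 0.0514). The filter thus builds in part of these counts and of the list counts below. Both were at 2 times the highest of the other 8 or more in 6 members (Myh6, Sln, Myl7, Tnni3, Myl4 and Tnnt2), and in 0.191% of genes tested, which is 39 genes. Of those 39, 6 were members, 18 were on a companion list of heart or muscle genes, and 15 were on no list. Of the 15, 8 were not protein coding and had fewer than 10 reads in either library. The other 7 (Eef1a2, Hamp, Dhrs7c, Smyd1, Synpo2l, Fhl2 and Sgca), named after their values were seen, are protein coding. Eef1a2, the elongation factor form of muscle and neurons, was at 3.34 and 1.29 FPKM in the pair and at most 0.0864 in the rest. Smyd1 is a methyltransferase of striated muscle, and Sgca is a sarcoglycan of its membrane.

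**Figure D3:**
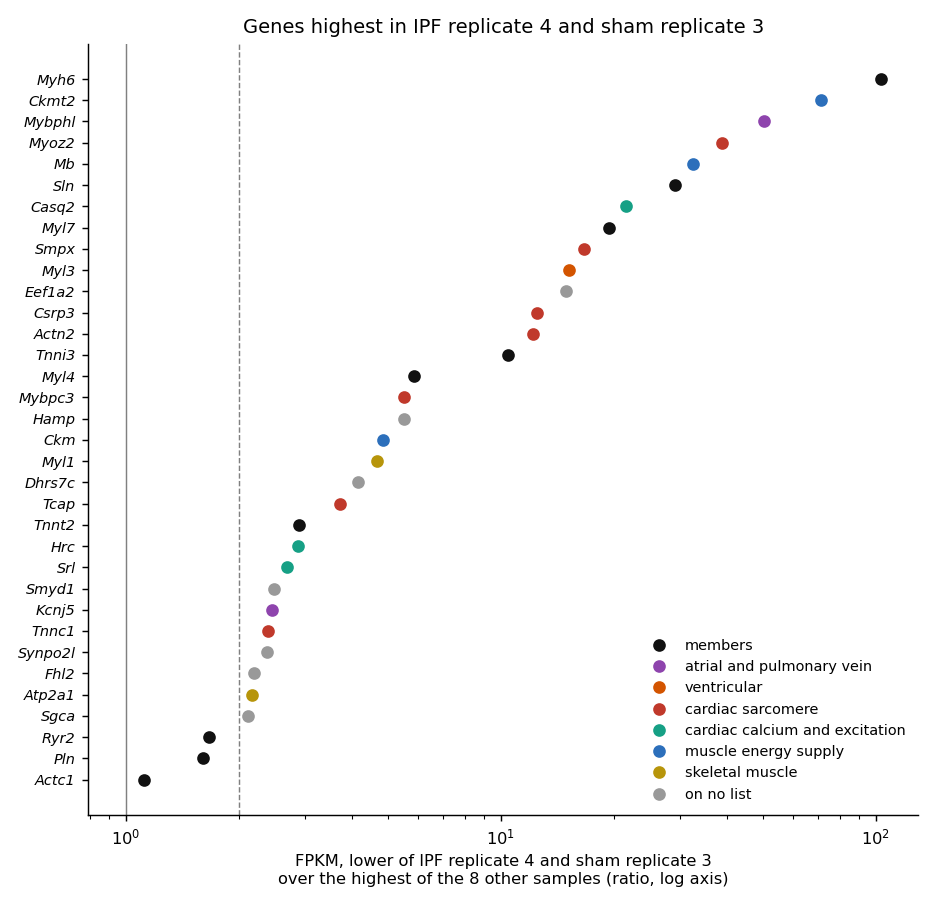
For each gene, the lower FPKM of IPF replicate 4 and sham replicate 3 divided by the highest FPKM of the other 8 lungs, on a log axis, colored by gene list, with the dashed line at 2. Myh6 leads with 103, 6 members lie right of the line, and Ryr2, Pln and Actc1 lie between 1 and 2.

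The plot of these ratios places genes of the heart sarcomere, of its energy supply and of calcium storage among the members. By a fixed rule, the 5 genes with a mean of at least 0.5 FPKM (15344 searched) whose log2 values followed the mean of the members most closely over the 10 lungs were Mb (Pearson r = 0.993), Ckmt2 (0.990), Mybphl (0.986), Actn2 (0.966) and Ldb3 (0.930). They are myoglobin, the mitochondrial creatine kinase of sarcomeric muscle, an atrial myosin-binding protein, and the alpha-actinin and LIM protein of the Z-disc. Mb was at 8.09 and 5.22 FPKM in the pair and at 0 to 0.161 in the rest, and Ckmt2 at 4.62 and 3.14 FPKM against 0 to 0.0441. These values of r rest on the 2 lungs: over the other 8 they were 0.719 for Mb, 0.290 for Ckmt2, 0.203 for Mybphl, 0.018 for Actn2 and 0.474 for Ldb3.

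Atrial, ventricular and vein genes were then read side by side. Of 12 atrial and pulmonary vein genes, 3 had the pair on top among those tested and 2 by 2 times or more, Mybphl and Kcnj5. Mybphl was at 3.48 FPKM in IPF replicate 4 (81 reads), 2.59 in sham replicate 3 (53 reads) and 0 to 0.0514 in the other 8. Kcnj3 and Kcnj5, the subunits of the acetylcholine-gated potassium channel of atria, were at 0.410 and 0.609 FPKM in IPF replicate 4 and at 0.239 and 0.439 FPKM in sham replicate 3. Elsewhere Kcnj3 did not exceed 0.0115 and Kcnj5 did not exceed 0.179 FPKM. Tbx5 (10.3 to 18.6 FPKM), Gja5 (6.06 to 16.4 FPKM) and Hcn4 (at most 0.441 FPKM) did not separate the pair, and Sbk3 was highest in sham replicate 3 (1.83 FPKM) but not raised in IPF replicate 4 (0.687 FPKM). Tbx5 and Gja5 are also genes of lung mesenchyme and arterial endothelium.

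Genes with a narrower place in the atria were near the limit of detection. Bmp10, a gene of the right atrium, had 2 reads in sham replicate 3 and none in the other 9 lungs. Shox2, a gene of the sinus node and of vein myocardium, was at 0.0829 FPKM (5 reads) in IPF replicate 4, 0 in sham replicate 3, 0.0479 FPKM (3 reads) in IPF replicate 3 and 1 read in sham replicate 5. Of the 6 cardiac transcription factors listed, 3 were tested (Gata4, Mef2c and Myocd) and 0 of these had the pair on top. Gata4 was at 0.520 FPKM in IPF replicate 4 but 0.191 in sham replicate 3, within the 0.135 to 0.446 of the rest, and Mef2c was lowest in sham replicate 3 (2.78 FPKM). Hand2 had 2 reads in IPF replicate 4, 1 in sham replicate 3 and 1 in sham replicate 2. Nkx2-5, a heart factor, had 3 reads in each of the pair and 0 in the rest, and Tbx20, another heart factor, was at 0.471 and 0.166 FPKM in the pair and at most 0.00547 elsewhere.

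Of the 4 ventricular genes, Myl3 alone stood well above the rest in both lungs. Myl2, the ventricular regulatory light chain, had 6 reads (0.169 FPKM) in IPF replicate 4, 3 reads (0.0958 FPKM) in sham replicate 3 and 0 to 0.101 FPKM in the other 8. Its level relative to Myl7 was 0.264% in IPF replicate 4 (exact 95% counting interval 0.0966 to 0.578%) and 0.174% in sham replicate 3 (0.0357 to 0.510%). Irx4, a ventricular transcription factor, had 0 reads in all 10 lungs. Myl3, the essential light chain of ventricle and slow muscle, was at 2.39 and 2.22 FPKM in the pair. The rest were at 0 to 0.147 FPKM. The pair's values were 25.9% (20.5 to 32.2%) and 29.8% (23.0 to 38.1%) of the Myl4 of the same libraries. The percentages for Myl2 and Myl3 depend on the gene lengths in the table, which the intervals do not cover. In reads, IPF replicate 4 had 6 of Myl2 against 687 of Myl7, and 89 of Myl3 against 781 of Myl4.

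Myh7 was present in every lung and did not follow the pair: it was at 2.25 FPKM in IPF replicate 4, at 1.27 in sham replicate 3, the lowest of all, and at 1.56 to 3.59 in the other 8. The ratio of Myh7 to Myh6 was 12.0% (10.7 to 13.4%) in IPF replicate 4 and 8.27% (7.04 to 9.68%) in sham replicate 3. In the other 7 lungs with any Myh6 read it was 1239% or more, and sham replicate 4 had no Myh6 read. Atrial appendage, atrial wall, and the muscle sleeve of the pulmonary vein inside the lung share most of the genes above, and no file here holds position, so which of them the reads came from was not tested.

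**Figure D4:**
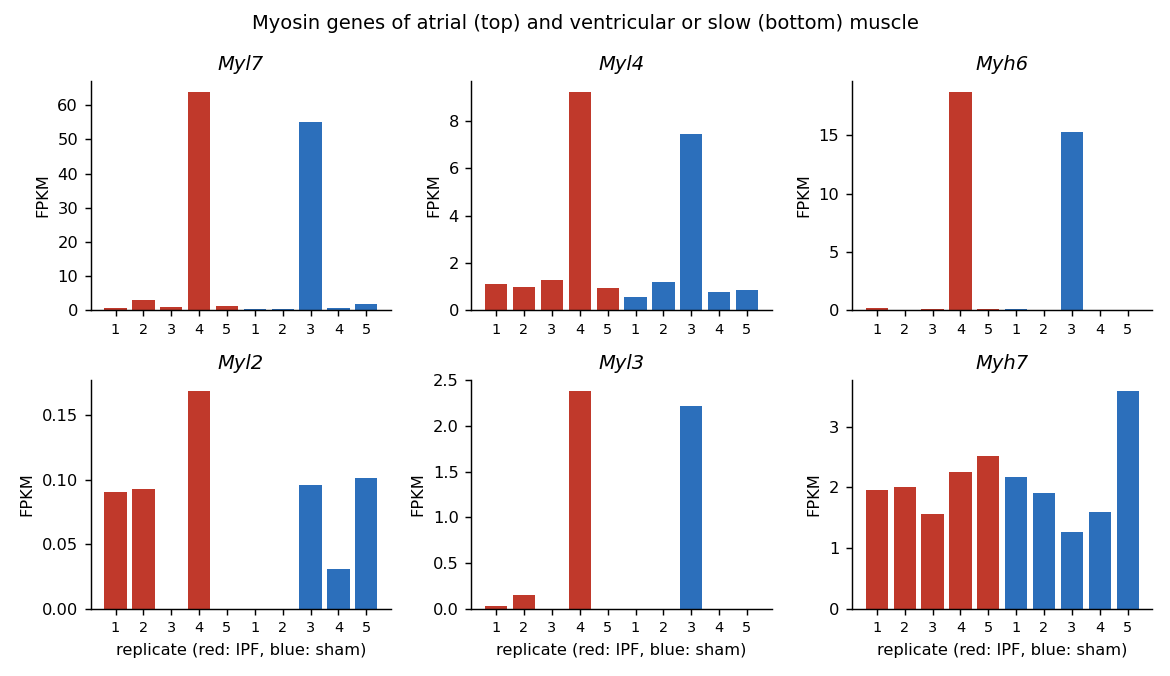
FPKM of the atrial myosin genes Myl7, Myl4 and Myh6 (top row) and of Myl2, Myl3 and Myh7 (bottom row) in each lung, IPF in red and sham in blue, with axes that start at 0 and differ between panels. Bars of IPF replicate 4 and sham replicate 3 tower in the top row and in Myl3, while Myl2 stays at or under 0.169 FPKM and Myh7 is present in all lungs.

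The bars of the myosin genes show Myl3 high in the same lungs as the atrial genes, Myl2 near its limit in all lungs, and Myh7 in an order of its own. Myh6 and Myh7 are near-identical neighbors, as are the actins Actc1, Acta1 and Acta2 in sequence, so reads could have been split between such genes in counting.

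Other genes of the contracting heart cell were counted in full. Of 20 sarcomere genes, 14 were tested and 11 of those had the pair on top, 7 by 2 times or more. Some of them, such as Myoz2 (at most 0.0383 FPKM in the other 8 lungs), passed the filter only through the pair. Titin (Ttn), the giant spring of the sarcomere, was at 0.140 and 0.134 FPKM in the pair and at most 0.0306 elsewhere, and cardiac myosin-binding protein C (Mybpc3) was at 1.01 and 0.778 FPKM against at most 0.141. Nebl, Ankrd1 and Nexn, the most abundant of the list, are expressed beyond the heart and did not separate the pair (Nebl 20.5 and 22.6 FPKM against 19.7 to 25.9). Of 11 calcium and excitation genes, 10 were tested, and 5 had the pair on top. Casq2, the calcium store protein of heart muscle, was at 2.39 and 2.07 FPKM against at most 0.0959, while the pump gene Atp2a2, which most cell types express, was at 68.5 and 54.7 FPKM against 41.8 to 49.2. Of 10 energy genes, 9 were tested and 6 had the pair on top, 3 of them by 2 times or more (Mb, Ckmt2 and Ckm).

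Markers of other tissues near the hilum were read in the same 10 lungs. Of 16 skeletal muscle genes, 9 were tested and 2 had the pair on top (Myl1 and Atp2a1). Acta1, the skeletal actin, was at 0.750 FPKM in IPF replicate 4, 0 in sham replicate 3 and 0 to 1.13 in the rest, and the fast heavy chain Myh4 had 1 read in each of the pair. The summed skeletal list was 6.99 and 5.48 FPKM in the pair and 3.94 to 6.66 in the rest. Among 11 smooth muscle genes 0 had the pair on top, and their sum was 263 and 304 FPKM against 229 to 390. The same count was 0 for genes of ciliated airway (10 tested), cartilage (1 tested), fat (5 tested), thymus (1 tested), mesothelium (6 tested) and lung identity (10 tested). Mesothelium summed to 141 and 118 FPKM in the pair and to 68.8 to 131 elsewhere, and Ucp1, a brown fat gene, was at 2.21 FPKM in IPF replicate 4. By contrast, the 10 members summed to 172 and 154 FPKM in the pair and to 18.2 to 56.2 in the rest, most of the latter being Actc1. Whether tissue of another kind took part in the pair's values was not tested.

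Between IPF and sham, 98 of the 140 companion genes were tested and 0 were called, and 6 had an adjusted p under 0.05 with a log2 difference below 1 in size (5.85% of all genes had such an adjusted p, of any size). Without IPF replicate 4 and sham replicate 3 the count was 2, Synpo2 and Cldn5, both among the 6. Gja5, the connexin of atria and arterial endothelium, was at 14.0, 15.3, 16.4, 12.3 and 10.4 FPKM in IPF replicates 1 to 5 and at 6.06, 10.2, 6.32, 9.22 and 8.67 FPKM in sham replicates 1 to 5. All IPF lungs were above all sham lungs, and the log2 difference was 0.76 (limma, adjusted p = 0.0211), and 0.72 without those 2 lungs (adjusted p = 0.0935). Without sham replicate 3 alone the adjusted p was 0.0536. Jph2, a junctophilin that couples calcium channels to the store, was 0.73 higher on the log2 scale in IPF (adjusted p = 0.0110, and 0.0627 without those 2 lungs), and Cacna1c, the L-type calcium channel, differed by -0.47 (adjusted p = 0.0213, and 0.0949 without them). None of the 3 was highest in the pair of lungs with high Myl7, Jph2 being at 9.83 FPKM in IPF replicate 4 and 5.83 in sham replicate 3, inside the span of the other 8 lungs (4.91 to 10.8). The other 3 were Synpo2 (0.64, adjusted p = 0.00522, and 0.0491 without those 2 lungs) and Smtn (-0.26, adjusted p = 0.0495, and 0.202) of smooth muscle, and Cldn5 (0.56, adjusted p = 0.0107, and 0.0473) of endothelium. Leaving out IPF replicate 4 alone took Smtn to an adjusted p of 0.123, and leaving out sham replicate 3 alone to 0.0953.

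IPF replicate 4 and sham replicate 3 were also set against each other. This compares these 2 libraries and not the conditions, and the intervals are exact 95% intervals for counting error only. For Myl7 the ratio of IPF replicate 4 to sham replicate 3 was 1.16 (1.03 to 1.30), for Myh6 1.23 (1.15 to 1.31), for Myl4 1.24 (1.11 to 1.38) and for Tnni3 1.38 (1.17 to 1.62). The intervals of these 4 genes overlap one another. Sln stood outside them at 2.20 (1.60 to 3.06) with the intervals of Myh6, Myl7 and Myl4 ending below its own, and Actc1 was at 0.954 (0.891 to 1.02). Among other heart genes, Csrp3 (2.42, 1.79 to 3.31), a Z-disc protein, was higher in IPF replicate 4, while Tcap (0.624, 0.508 to 0.766), the titin cap, and Tnnc1 (0.678, 0.524 to 0.875), cardiac troponin C, were higher in sham replicate 3.

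**Figure D5:**
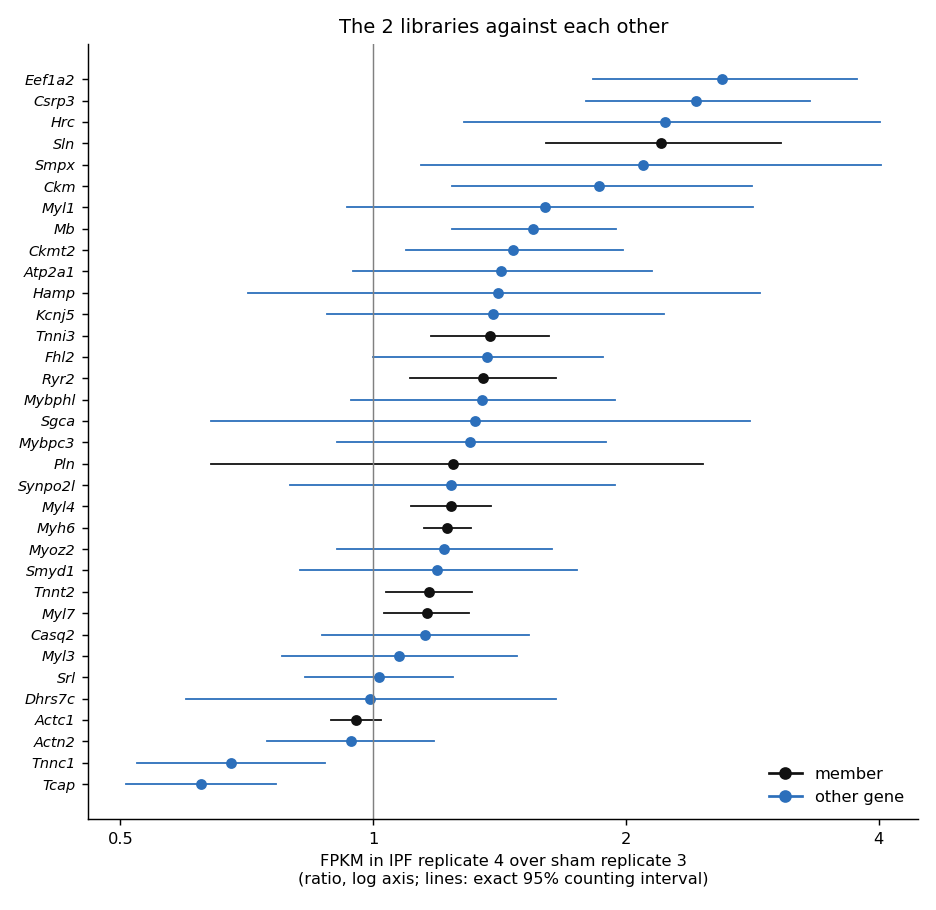
FPKM in IPF replicate 4 divided by FPKM in sham replicate 3 on a log axis, with exact 95% counting intervals as lines, members in black and other heart and muscle genes in blue. Of the 9 members, 7 lie to the right of 1 and left of Sln, which lies at 2.20, and Tcap is lowest at 0.624.

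The plot of the library ratios shows the intervals of Tcap and Csrp3, both Z-disc genes, on opposite sides of 1.

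In the other 8 lungs the members were low but not alike. Myl7 ran from 0.206 to 2.85 FPKM with a median of 0.804, on 2 to 28 reads, and Myh6 from 0 to 0.148 FPKM with a median of 0.0466. IPF replicate 2 had the most Myl7 among them but 3 reads of Myh6, and IPF replicate 1 had the most Myh6 with 5 reads of Myl7. Because the 10 lungs fall into separate clusters, no relation was tested over all of them, and the values of r over 10 lungs given above only describe how the 5 genes were chosen. Within the 8, the relation of each of 8 other members to Myl7 was tested (exact permutation, two-sided). Myh6 (0 to 17 reads) and Sln (0 to 2 reads) fell below a mean of 0.1 FPKM in these lungs, so their relations are not read. Pln, at 1 to 11 reads, stayed above that limit but is also subject to counting error. Ryr2 was lower where Myl7 was higher: Spearman rho was -0.952 (exact permutation p = 0.00114, adjusted over 8 relations 0.00913), whereas Pearson r was -0.816 (exact permutation p = 0.00960, adjusted 0.0768). Without the 2 lungs farthest from the median of Myl7, sham replicate 5 and IPF replicate 2, Pearson r was -0.931 (exact permutation p = 0.00694, adjusted 0.0556, n = 6), and the adjusted p by rho was 0.133. Leaving out IPF replicate 1, IPF replicate 5, sham replicate 1 or sham replicate 2 raised the adjusted p by rho to 0.0540 (exact permutation), and leaving out IPF replicate 2 or sham replicate 5 brought that by Pearson r to 0.0190 or 0.00794, while the other 6 single omissions gave 0.117 to 0.298 and the linear FPKM scale gave 0.238. For the other 7 members the lowest adjusted p was 0.0615 by rho, for Tnni3 (rho = -0.833, exact permutation). Adjusted over the 6 relations without Myh6 and Sln, a choice made after seeing the data, the p by rho was 0.00685 for Ryr2 and 0.0461 for Tnni3, and by Pearson r 0.0576 and 0.602 (exact permutation). With so few reads of Myl7, its order among these lungs is subject to counting error. Of 14 relations of Myl7 to the means of companion lists, 0 had an adjusted p under 0.05 by either measure (exact permutation), and 0 had an unadjusted p under 0.05.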

How the data were processed

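Whole-lung mRNA of 5 IPF and 5 sham mice was sequenced. The authors trimmed reads with Fastp, aligned them with HISAT2 and quantified genes with StringTie. The deposited values are FPKM, 1 per gene and sample. The methods name GRCm39 and the KAPA mRNA HyperPrep kit; the labels name NEBNext Ultra, GRCm38, mm10, hg38 and Bowtie 0.12.2. Genes in the table carry GRCm38 positions: on chromosome 1 they run to 195323493, past the GRCm39 end. Strand use in counting was not given in the sources used here.

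FPKM times length was a whole multiple of 1 read in 100% of values (tolerance 0.01 read), which gave the reads. Genes with a mean of at least 0.1 FPKM were tested with limma 3.58.1 (R 4.3.3, empirical Bayes with trend) on log2(FPKM + 0.1), with no covariate and Benjamini-Hochberg adjustment over 20448 genes. Fold changes on this scale understate those of low genes. Samples were grouped by their labels. The main fit treated the samples as unpaired. With group means removed, same-numbered samples correlated between -0.0204 and 0.0953, and 3 of 5 numbers correlated best with their own. Whether the replicate numbers pair the samples was therefore not settled, and a fit with the number as a block is given below. Named genes were the 10 members, the 3 most abundant of each companion list, the 5 most alike to the members, and the myosin ratios; other genes were named after their values were seen. The values of 1 gene on the atrial list are not reported here. Relations planned over 9 members covered 8, since Nppa was too low, and were restricted to 8 samples, for which exact permutation replaced resampling. The members and all lists were chosen with earlier results of these data known. The fit and the read recovery were tested on simulated data. The alternatives were other pseudocounts, filters and scalings, limma voom, a replicate block, and leaving out samples. Python 3.11.15, pandas 2.3.3, numpy 2.4.6 and scipy 1.17.1 were used.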

Additional observations from a re-analysis of the deposited data

Results flagged for a closer look

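In 57 named genes, each group of 5 lungs was checked for a highest or lowest sample far from the others (Dixon's criterion at the 95% level). Chance marks about 1 in 20 groups. Of 114 groups, 35 stood out, but that count is no measure against chance: 14 were of the members, which singled out the 2 lungs, and 9 were of the 5 genes chosen for following them. The other 42 genes gave 12 of 84 groups. IPF replicate 4 accounted for 15 of the 35 and sham replicate 3 for 13.

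In FPKM, with IPF replicate 4 first and sham replicate 3 second, both being the highest of their groups, these were Myl7 at 63.9 and 55.2, Myl4 at 9.24 and 7.47, Myh6 at 18.7 and 15.3, Tnnt2 at 4.72 and 4.05, Tnni3 at 10.5 and 7.61, and Sln at 5.83 and 2.65. Outside the members, Myl3 was at 2.39 and 2.22, Mb at 8.09 and 5.22, Ckmt2 at 4.62 and 3.14, Mybphl at 3.48 and 2.59, and Actn2 at 2.31 and 2.46.

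IPF replicate 4 alone stood out in Ryr2 at 0.488 FPKM, Atp2a2 at 68.5, Ldb3 at 1.91 and Ucp1 at 2.21. Sham replicate 3 alone stood out in Fabp3 at 12.9 FPKM and in the surfactant gene Sftpb at 1854. IPF replicate 3 was highest in Des at 38.2 FPKM, Dynlrb2 at 37.0 and Cfd at 7.29. In sham replicate 5, Cidec was at 7.60 FPKM and Dntt at 0.185. In sham replicate 1, Nppa was at 0.0701 FPKM on a single read, and Sftpc was the lowest of the group at 9437 FPKM.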

How the results depend on the processing

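The count of members called was 0 of those tested under every alternative run. The count over all genes, 233, was 74 with a pseudocount of 1, 154 with a mean of at least 1 FPKM, 117 without both IPF replicate 4 and sham replicate 3 (chosen after seeing the data), and 171 to 299 when 1 sample was left out, lowest without IPF replicate 4. The stricter filter tested 13445 genes instead of 20448, while leaving out 1 sample lowered or raised the count. Why the count changed was not tested. With the replicate number as a block it was 202, which changed no member's call but left 4 companion genes with an adjusted p under 0.05 (Gja5 at 0.0537 and Smtn at 0.0533 were lost), and 3 of 5 numbers correlated best with their own. Companion genes with an adjusted p under 0.05 numbered 6, 2 without both of those samples, and 4 to 9 when 1 sample was left out. Leaving out 1 sample, the log2 difference ranged from -0.47 to 1.94 for Myl7, -0.25 to 0.96 for Myl4, -0.80 to 1.92 for Myh6, -0.45 to 0.022 for Actc1, -0.65 to 0.42 for Tnnt2, -1.16 to 0.54 for Tnni3, -0.38 to 1.64 for Sln, -0.14 to 0.22 for Ryr2 and -0.49 to 0.075 for Pln. Under other pseudocounts, filters, scalings, voom and the block it was 0.13 to 1.81 for Myh6, 0.24 to 2.01 for Sln and 0.34 to 0.78 for Myl7, and the other 6 lay between -0.35 and 0.40 with no change of sign. Relations to Myl7 past the limit by Pearson r numbered 0, then 1 with deviations from group means (Ryr2, adjusted exact permutation p = 0.00853), and 0 to 2 leaving out 1 sample (Ryr2 without IPF replicate 2, and Ryr2 and Sln without sham replicate 5, where Sln had at most 2 reads per sample and its relation is not read), and 0 without Myh6 and Sln. A mean of at least 1 FPKM left no value for Pln, Ryr2 and Sln. Depth limits Nppa, Bmp10 and Myl2, at 6 reads or fewer per sample.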
